A study of Mus musculus with 2 samples.

Results

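The miRNAs of the Dlk1-Dio3 imprinted region were examined as a set of 29 array probes, out of 252 probes that matched a mouse miRNA gene by name with 1 probe kept per arm. Members were chosen by a rule on names, set with earlier results of these data known. The rule held 39 miRNA numbers known to lie in the region, of which 28 had a probe on the array and 11 had none. Where an arm had probes for more than 1 species, the mouse probe was taken before the human one, which left 9 probes with a mouse and 20 with a human prefix, for 28 miRNA genes. The study set C3H10T1/2 cells given BMP7 at 3.3 nM for 3 days against C3H10T1/2 cells given vehicle for 3 days. C3H10T1/2 is a mouse embryonic mesenchymal cell line that can be turned towards fat, bone or cartilage, and BMP7 is a secreted growth factor of the TGF-beta superfamily. Each group had 1 array, so no difference has a replicate check and no p-value is given. Errors below are over the 4 spots that each probe has on an array, and cover only the spread within that array. The arrays hold no mRNA markers by which to check the cell type.

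The Dlk1-Dio3 region is imprinted: its protein-coding genes, Dlk1, Rtl1 and Dio3, are expressed from the paternal chromosome, and its noncoding RNAs, among them Meg3, Rian, Mirg and the transcript antisense to Rtl1, from the maternal one. The miRNAs are processed from these maternal transcripts and are known for high levels in the embryo, the placenta and the adult brain. Dlk1, also called Pref-1, is known to hold back the conversion of preadipocytes into fat cells. In RefSeq (GRCm38.p6) the 28 member genes lay on the plus strand of chromosome 12, between positions 109580233 and 109743795, a span of 163.563 kb. Of these genes, 4 fell within the span of Rtl1 (miR-493, miR-337, miR-127 and miR-136), 2 within Rian (miR-341 and miR-370), 7 within Mirg and 15 within none of these.

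A mature sequence was found in RefSeq (GRCm38.p6) for 27 of the 29 members. These 27 had 27 different seeds, so no seed was shared by any pair, although 3 pairs of seeds differed at a single base. The array's own probe sequences were not used here. The arm of a probe with an older single name was assigned from general knowledge of miRNA naming, and the target of a probe with a human prefix may differ from the mouse sequence. The sequences of the members that the results turn on are given 5′ to 3′ with the seed, bases 2 to 8, in capitals. miR-494 and miR-337 are shown as the members that cleared background, miR-379 as the member measured on a further panel, and the others as those with the highest folds in the authors' deposited table.
miR-494: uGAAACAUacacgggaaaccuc
miR-337: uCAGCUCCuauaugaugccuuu
miR-323: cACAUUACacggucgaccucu
miR-409: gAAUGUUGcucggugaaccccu
miR-370: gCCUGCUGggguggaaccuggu
miR-127: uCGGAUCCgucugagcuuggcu
miR-411: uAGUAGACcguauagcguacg
miR-379: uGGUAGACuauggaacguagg

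The seeds of miR-379 and miR-411 form one of the pairs with a single mismatch. The others are shown because probes for such close relatives can read each other's RNA.
miR-376a: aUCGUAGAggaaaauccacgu
miR-376b: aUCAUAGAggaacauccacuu
miR-300: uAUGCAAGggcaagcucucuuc
miR-381: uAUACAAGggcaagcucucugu

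Few members of the region stood clear of the background of the arrays. A spot in the channel that reads Cy3, called the Cy3 channel here, passed when its brightness stood above its own local background by a margin of 2 standard deviations, taken over the backgrounds of that array. The margin was 948 units on the BMP7 array against 1152 units on the vehicle array. A member was called detected with at least 2 passing spots of 4. No member was detected on the BMP7 array, where 16.3% of the 252 mouse-matched probes were. On the vehicle array 2 members, miR-494 and miR-337, were detected, against 22.6% of the mouse-matched probes. The other 27 members were detected on neither array, whereas 25.4% of mouse-matched probes, and 11.3% of 62 probes whose name has no mouse gene, were detected on 1 or both.

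Single spots passed here and there. On the BMP7 array 3 of 116 member spots passed, 1 each of miR-323, miR-376a and miR-409. On the vehicle array 11 of 116 passed: 3 of miR-494, 2 of miR-337, and 1 each of miR-493, miR-496, miR-485-5p, miR-376a, miR-380-3p and miR-127. The mean of the 4 spots lay above the local background for 6 members on the BMP7 array, where 37.3% of mouse-matched probes did so, and for 16 members on the vehicle array, where 60.3% did so. The median member lay below its background on the BMP7 array (-454.506 units) and above it on the vehicle array (153.502 units), and the medians over mouse-matched probes were -260.156 units and 169.871 units. The detected share therefore stood below the share of all mouse-matched probes on both arrays, and the levels of nearly all members could not be told from background.

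**Figure D1:**
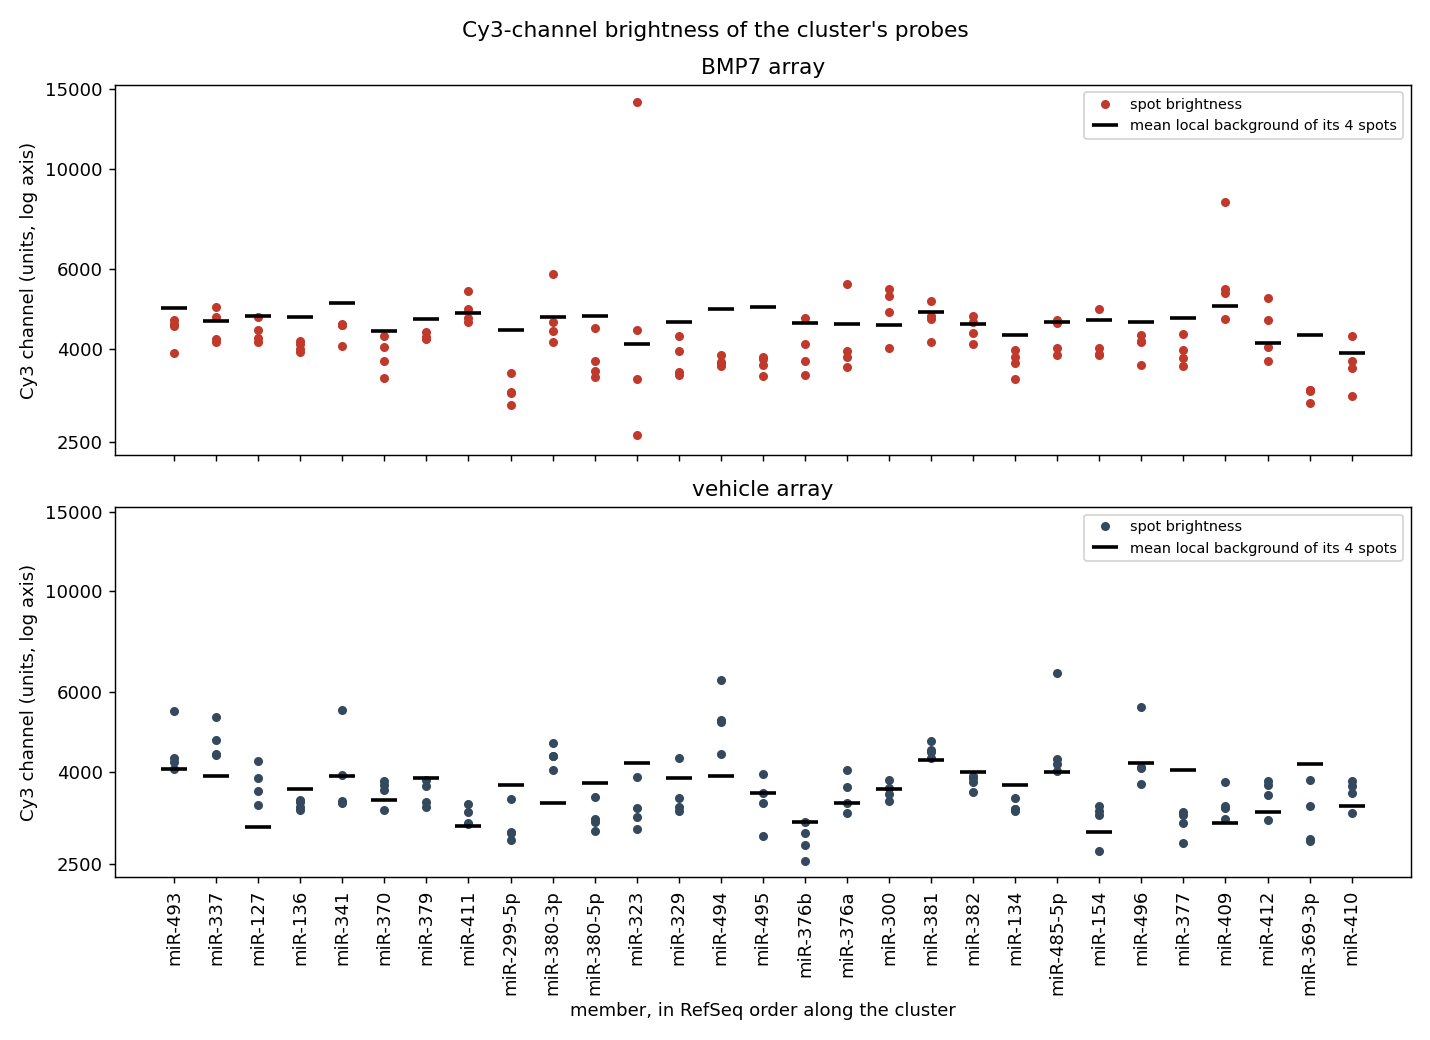
Cy3 brightness of every member's 4 spots (points, arbitrary units, log axis) on the BMP7 array above and the vehicle array below, in genome order, with a bar at the mean local background of the spots. Member means ran from 3198 to 6124 with BMP7 and from 2834 to 5275 with vehicle, and lay above the mean local background for 6 and 16 of 29 members.

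Before background correction most members were somewhat brighter on the BMP7 array, and so was the background around them. The median Cy3 brightness over the 29 members was 4259 units on the BMP7 array against 3594 units on the vehicle array. Taken member by member, the log2 difference had a median of 0.16, against 0.16 over mouse-matched probes. The mean brightness was higher with BMP7 for 23 of 29 members, where 75% of mouse-matched probes were higher. The local background was higher on the BMP7 array around 28 of 29 members and around 237 of 252 mouse-matched probes. Its median log2 difference was 0.31 over members and 0.30 over mouse-matched probes. The scanner read a laser power for Cy3 of 3.17 in the BMP7 scan and 2.45 in the vehicle scan. Across the members, the log2 difference in brightness and that in local background had a Spearman rho of 0.42 and a Pearson r of 0.34 (n = 29 probes that share the same arrays and scans).

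The spots were ordered differently before and after background subtraction. Every BMP7 spot was brighter than every vehicle spot for 9 members, where 32.5% of mouse-matched probes were in that position. They were miR-136, miR-379, miR-411, miR-376b, miR-300, miR-382, miR-154, miR-377 and miR-409. Every BMP7 spot was dimmer for 1 member, miR-494 (7.94% of mouse-matched probes), and the spots of 19 members overlapped. Once each spot's local background was subtracted, no member kept all BMP7 spots above the vehicle spots (4.37% of mouse-matched probes did). Then 3 members, miR-127, miR-494 and miR-495, had all BMP7 spots below them, where 29.4% of mouse-matched probes had.

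miR-494 (chr12:109715367-109715388, plus strand), a miRNA of the large cluster from miR-379 to miR-410, had Cy3 brightness of 3891, 3755, 3737 and 3666 units on the BMP7 array, against 5158, 5193, 6379 and 4371 units on the vehicle array. All BMP7 spots were dimmer than all vehicle spots. The local backgrounds were 4739, 4794, 4574 and 5553 units on the BMP7 array, against 3942, 3555, 3676 and 4491 units on the vehicle array. The BMP7 spots thus all lay below their own background, whereas the vehicle spots lay above it except the last. After background correction and quantile normalization the log2 level was 8.91 ± 1.17 with BMP7 and 11.16 ± 0.78 with vehicle (SD over 4 spots), a log2 difference of -2.25 ± 0.70 (SE over spots). Since the probe was not well above background with BMP7, only a bound could be set there. On that bound the vehicle mean stood 1.13-fold above the lowest level detected on the BMP7 array, a log2 difference of -0.18. The bound leaves out the spread of the vehicle spots, whose SD of 0.78 was larger than it, so no lower level is read from it. With no background correction the log2 difference was -0.61, and with plain subtraction -3.63. In total RNA of a culture, fewer cells with a miRNA and less of it per cell cannot be told apart.

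miR-337 (chr12:109585850-109585871, plus strand), one of the miRNAs from the transcript antisense to Rtl1, had 4960, 4710, 4219 and 4161 units on the BMP7 array, against 4695, 5291, 4367 and 4355 units on the vehicle array. The spots of the arrays overlapped. Their local backgrounds were 4708, 4546, 4608 and 4638 units on the BMP7 array, against 3493, 3622, 4254 and 4304 units on the vehicle array. The mean minus background was -112.509 units with BMP7 and 758.75 units with vehicle. The fitted log2 level was 10.53 ± 0.36 with BMP7 and 10.83 ± 0.59 with vehicle (SD over 4 spots), a difference of -0.30 ± 0.34 (SE), within the spread of the spots, and no fold could be bounded. With plain subtraction the difference was -0.98. Both members entered this comparison through the vehicle array alone, where they were the brighter, so the choice of detected members favours a lower level with BMP7 and nothing is read from the direction. The fitted difference of miR-494 was past 2-fold downward and that of miR-337 was not, where 7.81% of the 64 detected mouse-matched probes were past it downward and 4.69% upward, but at its bound miR-494 did not pass 2-fold.

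The authors' deposited table holds a ratio in place of a brightness. For each probe the scans hold a second channel, whose content, not given in the sources used here, was left without a name. The table's array values were those of each spot's Cy3 brightness over its second-channel brightness, averaged over spots and set against the same average for a control probe, with no background subtracted. They matched to within 0.1% for 336 of 339 rows on the BMP7 array, and for all but 2 rows on the vehicle array. All 29 members had a higher ratio with BMP7 in the authors' deposited table, as did 92.6% of its 339 array rows. For miR-369-3p, miR-410 and miR-136 the log2 fold (0.109, 0.204 and 0.2206) was smaller than the control probe's difference. The folds of the members ran from 1.08 to 4.45 with a median of 1.52, beside a median of 1.46 over all array rows of that table. Set against that median, 16 members were above it and 12 below.

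By the authors' deposited table, miR-323, miR-409, miR-370, miR-127 and miR-411, a set of 5 members, were at least 2-fold higher with BMP7, where 7.67% of array rows were, and no member was at least 2-fold lower, where 0.295% were. The other 24 members lay below 2-fold, the highest of them miR-134 at 1.90-fold, a miRNA known for limiting dendritic spine size in neurons. Relative to the median of the rows 1 member, miR-323, passed 2-fold, and by Cy3 brightness alone, an alternative chosen after seeing the data, 0 did. At a lower limit of 1.5-fold, 16 members were higher, where 43.1% of array rows were. The 5 members past 2-fold were spread over the region: 1 of the 3 anti-Rtl1 miRNAs (miR-127), 1 of the 3 in the group of Meg3 and Rian (miR-370) and 3 of the 23 from miR-379 to miR-410. The group of Meg3 and Rian was set by name and order along the region, and 1 member of it, miR-493, lay within the span of Rtl1 in RefSeq, at 1.18-fold in the authors' deposited table. Median folds in the authors' deposited table were 1.18 for the anti-Rtl1 group, 1.59 for the group of Meg3 and Rian and 1.52 for the miR-379 to miR-410 group.

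**Figure D2:**
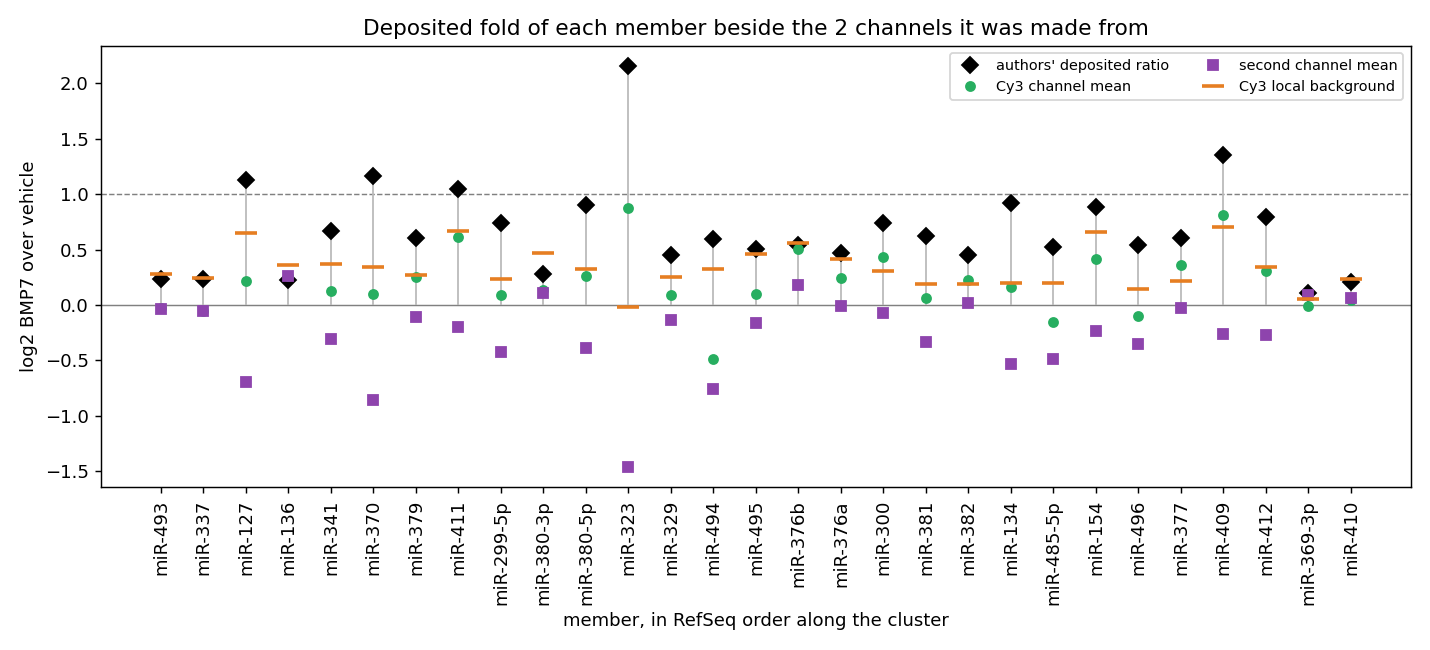
Log2 of BMP7 over vehicle for each member in genome order, with a dashed line at 2-fold. Diamonds show the authors' deposited ratio. Circles show the mean of the Cy3 channel over all spots, squares that of the second channel, and bars the Cy3 local background. The deposited ratio was averaged over spot ratios and set against that of a control probe. The ratio of 5 members lies above the dashed line, up to 2.16 for miR-323. The second channel of miR-323 stands at -1.47 over all spots, whereas its deposited BMP7 value matched the mean without the first spot.

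The control probe entered every fold alike, by a log2 of 0.224. The log2 folds of miR-370, miR-127 and miR-411 (1.16, 1.13 and 1.05) passed 2-fold by less than that. Those of miR-323 and miR-409 (2.16 and 1.35) passed it by more. Besides the control probe, the 5 members differed in the channel whose spots stood apart between arrays. For miR-409 and miR-411 every BMP7 spot was brighter in the Cy3 channel while the second-channel spots overlapped. For miR-323, miR-370 and miR-127 every BMP7 spot was dimmer in the second channel while the Cy3 spots overlapped. Each of the 5 is given below by spot, first in the numerator and then in the denominator.

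**Figure D3:**
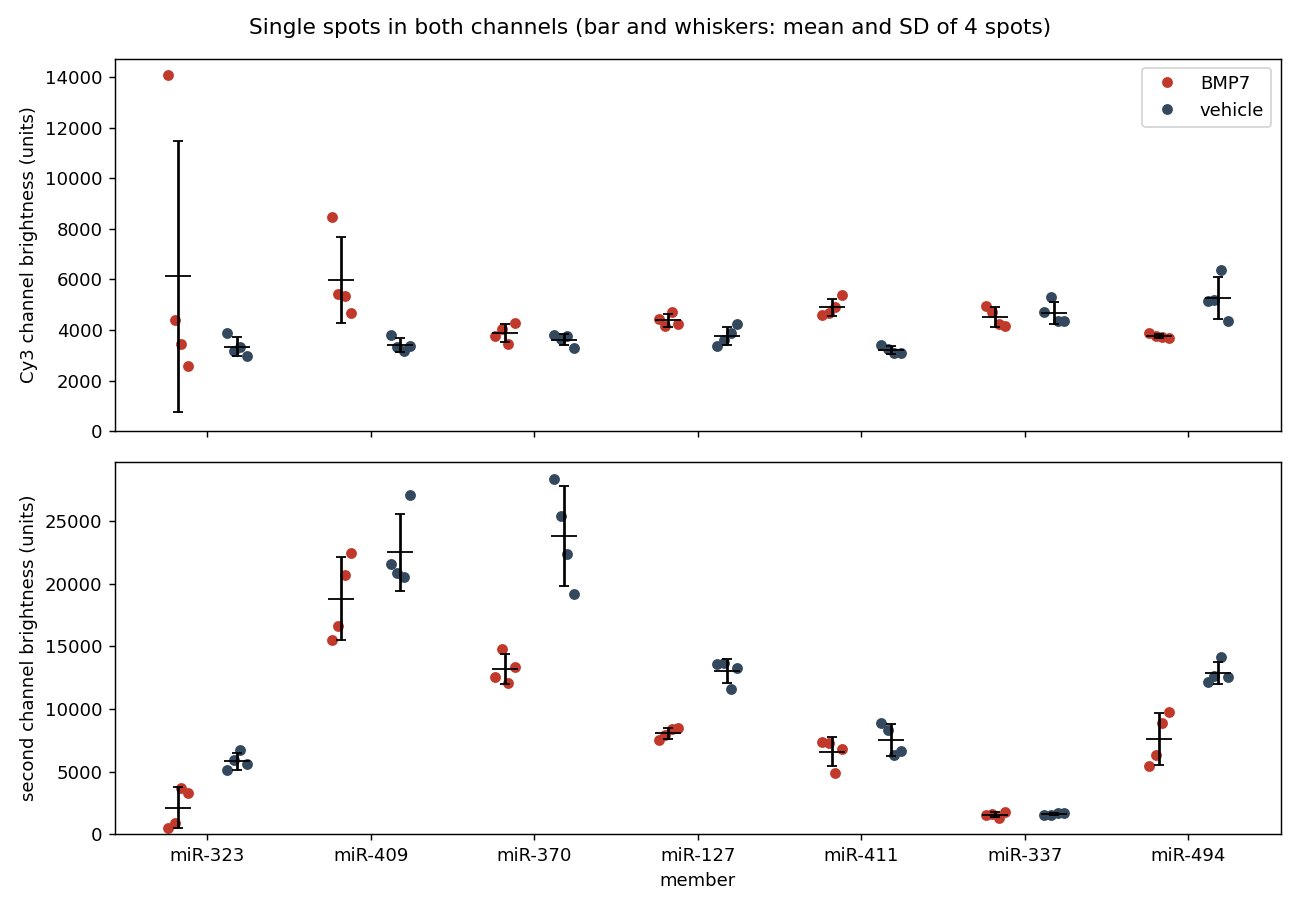
Brightness of each of the 4 spots (points, arbitrary units) with mean and SD, in the Cy3 channel above and the second channel below, for the 5 members past 2-fold in the authors' deposited table and the 2 detected members, BMP7 left of vehicle. In the Cy3 channel 1 BMP7 spot of miR-323 stands at 14071 units, and in the second channel all BMP7 spots of miR-323, miR-370, miR-127 and miR-494 lie below their vehicle spots.

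miR-323 (chr12:109712558-109712578, plus strand) ranked first of the 339 array rows of the authors' deposited table, with 0.127 with BMP7 and 0.0285 with vehicle. In the Cy3 channel its spots had 14071, 4405, 3436 and 2583 units on the BMP7 array, against 3895, 3171, 3319 and 2988 units on the vehicle array. In the second channel they had 528, 887, 3725 and 3292 units on the BMP7 array, against 5091, 5896, 6692 and 5607 units on the vehicle array. A pair of BMP7 spots, the brightest in the Cy3 channel, was therefore far dimmer in the second channel than the other pair, and the ratios of the 4 BMP7 spots were 26.6, 4.97, 0.922 and 0.785. The deposited BMP7 value matched the mean of the last 3 of these spots (0.127 after division by the control probe) and not that of all 4, which was 0.475. With all 4 spots the rebuilt fold was 16.7, without the first BMP7 spot 4.46, and with only the last pair of BMP7 spots, a choice made after seeing the data, 1.71. Whether the fold passed 2 thus depended on the first pair of BMP7 spots. The local background of miR-323 differed little between arrays, with means of 4117 units on the BMP7 array against 4181 units on the vehicle array.

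miR-409 (chr12:109743204-109743225, plus strand), which lies within Mirg near the far end of the cluster, had 8463, 5441, 5336 and 4661 units in the Cy3 channel on the BMP7 array, against 3798, 3325, 3149 and 3365 units on the vehicle array. All BMP7 spots were brighter, the first by the most. In the second channel it had 15459, 16607, 20700 and 22399 units on the BMP7 array, against 21547, 20834, 20481 and 27041 units on the vehicle array, with overlap. The fold in the authors' deposited table was 2.55, and the ratio rebuilt without the first spot gave 2.12. With the last pair of BMP7 spots alone it gave 1.77. The mean local background around its spots was 4993 units on the BMP7 array against 3077 units on the vehicle array, and 1 BMP7 spot of 4 passed the detection rule.

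miR-411 (chr12:109710190-109710210, plus strand) had 4601, 4682, 4901 and 5376 units in the Cy3 channel on the BMP7 array, against 3396, 3251, 3071 and 3089 units on the vehicle array. Its second-channel brightness was 7361, 7266, 4912 and 6778 units on the BMP7 array, against 8851, 8336, 6322 and 6615 units on the vehicle array. As for miR-409, the spots separated in the Cy3 channel only. The mean local background was 4813 units on the BMP7 array against 3034 units on the vehicle array, and the mean minus background was 77.3 units with BMP7 and 168 units with vehicle. The fold in the authors' deposited table was 2.07. Rebuilt without the third spot it was 1.94, and without any other single spot 2.10 to 2.12. With the median of the spots it was 1.96, and with the last pair of BMP7 spots alone 2.42. miR-409, miR-411 and miR-376b were all printed in the last of the 16 blocks of the array, where the median local background was 4633 units on the BMP7 array against 3098 units on the vehicle array (log2 difference 0.58). The part of this background in the folds of the 3 members was not tested.

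miR-370 (chr12:109618305-109618326, plus strand), within Rian, had 3769, 4037, 3462 and 4273 units in the Cy3 channel on the BMP7 array, against 3818, 3639, 3745 and 3285 units on the vehicle array. The spots overlapped in this channel. In the second channel it had 12504, 14797, 12038 and 13336 units on the BMP7 array, against 28328, 25399, 22336 and 19131 units on the vehicle array. Every BMP7 spot was dimmer, by a mean of 1.81-fold. The fold of the ratio in the authors' deposited table was 2.24, and with the last pair of BMP7 spots alone it was 2.30. Its mean local background in the Cy3 channel was 4399 units on the BMP7 array against 3468 units on the vehicle array, and the mean minus background was -514.001 units with BMP7 and 153.502 units with vehicle, opposite in direction to the ratio, with overlapping spots.

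miR-127 (chr12:109592888-109592909, plus strand), which lies antisense to Rtl1 and is known to direct cleavage of its mRNA, had 4416, 4149, 4706 and 4243 units in the Cy3 channel on the BMP7 array, against 3383, 3621, 3865 and 4225 units on the vehicle array. Only the brightest vehicle spot reached the BMP7 range. In the second channel the spots were 7498, 7911, 8360 and 8449 units on the BMP7 array, against 13588, 13684, 11609 and 13241 units on the vehicle array, and here they did not overlap. The fold in the authors' deposited table was 2.18, and with the last pair of BMP7 spots alone it was 2.13. As for miR-370 and miR-411, the direction of the mean after background subtraction in the Cy3 channel was the opposite. The mean minus background of miR-127 was -353.751 units with BMP7 and 747.506 units with vehicle. The background-subtracted spots of miR-370 and miR-411 overlapped between arrays, whereas those of miR-127 stood apart. The mean local background of its spots was 4732 units on the BMP7 array against 3026 units on the vehicle array. It lay in a block that also held miR-154, where the median background was 4615 units on the BMP7 array against 3027 units on the vehicle array. For the other members past 2-fold, miR-323 and miR-409, the mean minus background went in the direction of the ratio. It was 2007 units with BMP7 and -838 units with vehicle for miR-323, and 982 and 333 units for miR-409. The background-subtracted spots of both overlapped between arrays. The BMP7 mean of miR-323 included its first spot, at 14071 units over a background of 4176 units, a spot that the matched ratio left out. Its second BMP7 spot stood at 4405 units over 4060 units, and its last pair of BMP7 spots lay below their backgrounds.

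The 2 detected members also had a higher ratio in the authors' deposited table, at 1.51-fold for miR-494 and 1.18-fold for miR-337. For both this is opposite in direction to the fitted Cy3 level, although for miR-337 that difference was within the spread of the spots. The second-channel spots of miR-494 were 5409, 6309, 8881 and 9763 units on the BMP7 array, against 12128, 12640, 14129 and 12521 units on the vehicle array. Both channels of miR-494 were dimmer on the BMP7 array, by a log2 difference of -0.49 in the Cy3 channel and -0.76 in the second channel. For miR-337 the second-channel spots were 1536, 1593, 1299 and 1776 units on the BMP7 array, against 1537, 1530, 1661 and 1715 units on the vehicle array, with overlap.

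miR-379 (chr12:109709065-109709085, plus strand), the first miRNA of the large cluster, was the one member measured on both the array and a customized panel with assay and scale not given in the sources used here. On the array it had 4249, 4371, 4230 and 4209 units in the Cy3 channel with BMP7, against 3723, 3836, 3422 and 3335 units with vehicle. The BMP7 spots were all brighter, though the mean minus background was -400.263 units with BMP7 and -292.746 units with vehicle. In the second channel it had 12815, 14171, 10550 and 10563 units on the BMP7 array, against 12393, 14365, 12830 and 12318 units on the vehicle array. Its array fold in the authors' deposited table was 1.52, which ranked 138 of 339. On the panel the authors' deposited table gave 4.73e-09 with BMP7 and 2.35e-09 with vehicle, a fold of 2.02 with no spread to set it against. Array and panel gave the same direction in that table, where 92.6% of all array rows were higher with BMP7. Neither difference could be checked against replicates.

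miR-410, the last miRNA of the large cluster, had 3155, 3760, 3633 and 4276 units in the Cy3 channel on the BMP7 array, against 3726, 3823, 3247 and 3581 units on the vehicle array. Its spots overlapped in both channels, and its fold in the authors' deposited table was 1.15, below the median of the rows. The first and last miRNAs of the large cluster thus had folds of 1.52 and 1.15 in that table.

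The members that were dimmest over both arrays were miR-299-5p, miR-369-3p and miR-376b. miR-299-5p had 3211, 3548, 3020 and 3212 units in the Cy3 channel on the BMP7 array, against 2930, 2951, 2828 and 3484 units on the vehicle array. miR-369-3p had 3257, 3257, 3037 and 3240 units on the BMP7 array, against 3831, 3360, 2813 and 2838 units on the vehicle array. The means of both members were below the local background on each array, and their spots overlapped. miR-376b had 4102, 3502, 4684 and 3774 units on the BMP7 array, against 2755, 2545, 2936 and 3100 units on the vehicle array. Its BMP7 spots were all brighter, with a mean local background of 4568 units on the BMP7 array against 3100 units on the vehicle array, and its fold in the authors' deposited table was 1.46. A probe below its background still had a ratio: for miR-369-3p, whose second-channel spots had 194, 194, 182 and 210 units on the BMP7 array against 247, 170, 161 and 153 units on the vehicle array, it was the highest of all members on both arrays.

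The 17 members not given by spot had mean Cy3 brightness from 3706 to 4894 units with BMP7 and from 3083 to 4767 units with vehicle. Their folds in the authors' deposited table ran from 1.17 to 1.90, and the spots of 12 of them overlapped between arrays while those of the other 5 were brighter with BMP7. miR-136, which with miR-127 lies opposite Rtl1, averaged 4060 ± 96.4 units with BMP7 and 3380 ± 74.1 units with vehicle in the Cy3 channel (SD over 4 spots), both below background. miR-134 averaged 3746 ± 236 units on the BMP7 array against 3350 ± 106 units on the vehicle array, also below background. miR-329, which with miR-134 is known for activity-dependent dendrite growth in neurons, averaged 3831 ± 361 units on the BMP7 array against 3606 ± 467 units on the vehicle array. Each of these differences came with a higher local background on the BMP7 array.

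The members were brighter in the second channel than the typical probe on both arrays, and their order was nearly the same on each. The median second-channel brightness of the members was 6435 units on the BMP7 array against 7531 units on the vehicle array, beside medians of 3468 and 4082 units over mouse-matched probes on the same arrays. Across members it ran from 195 to 18791 units with BMP7 and from 183 to 23799 units with vehicle. The Spearman rho between the arrays was 0.97 and the Pearson r 0.93 (n = 29 probes on shared designs). miR-369-3p was lowest on both arrays, with a GC content of 23.8% in its mature sequence. miR-409 was highest on the BMP7 array (54.5% GC) and miR-370 on the vehicle array (68.2% GC). Over the 27 members with a sequence, mean second-channel brightness and GC content had a Spearman rho of 0.56 and a Pearson r of 0.55.

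Between arrays, the second-channel brightness was lower with BMP7 for 23 of 29 members, where 71.4% of mouse-matched probes were lower, with a median log2 difference of -0.19 over members and -0.15 over mouse-matched probes. Every BMP7 spot was dimmer in the second channel for 10 members (36.9% of mouse-matched probes) and brighter for 1, miR-376b (6.35%). The spots of 18 members overlapped. The deposited ratio is built from both channels, and across the 29 members its mean ranked with the second-channel brightness at a Spearman rho of -0.98 (Pearson r -0.49) and with the Cy3 brightness at 0.055 (Pearson r -0.29). Members with a bright denominator thus had the low ratios.

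**Figure D4:**
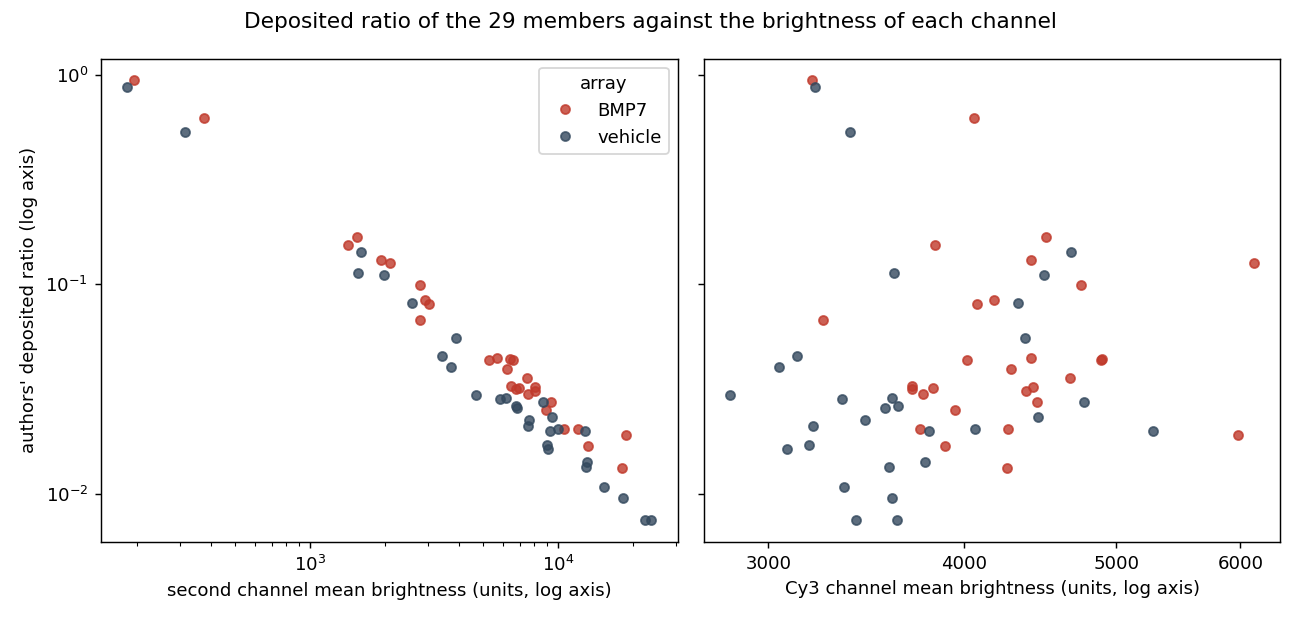
The authors' deposited ratio of each member against its brightness in the second channel and in the Cy3 channel (arbitrary units, log axes), for the BMP7 and vehicle arrays. The ratio falls as the second-channel brightness rises, from miR-369-3p at the dim end to miR-409, miR-376a and miR-370 at the bright end, and shows no such order along the Cy3 brightness.

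Human and mouse probes for the same arm existed for miR-376a, miR-337 and miR-380-3p. No human probe of the 3 was detected on either array. The mouse probe of miR-376a was 4.52-fold brighter in the second channel than the human one with BMP7 and 4.16-fold with vehicle. For miR-380-3p it was 3.87-fold brighter with BMP7 and 3.94-fold with vehicle. The mouse probe of miR-337 was instead the dimmer one, at 0.576 of the human probe with BMP7 and 0.555 with vehicle. The human and mouse forms of miR-376a and miR-380-3p are known to differ slightly in sequence. The gap between the probes of an arm was similar on both arrays.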

How the data were processed

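Total RNA of both groups was extracted with Qiazol, polyadenylated and labelled with Cy3 through the mirVana kit, per the labels' protocols. The intensity columns are mean spot brightness in the Cy3 channel and a second channel, not normalized and with background included, per the file headers. The sum and ratio of background-subtracted means, deposited in the same exports and used as scores, gave the local background of 1724 of 1728 spots with BMP7 and 1727 with vehicle, and a block median stood in for the remainder. The ratio values of the authors' deposited table are described with the results. For the array design, the build was not given in the sources used here.

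The Cy3 intensity was corrected with normexp (offset 50, limma 3.58.1, R 4.3.3), control spots were removed, quantile normalization followed, and each probe's 4 log2 values were averaged. The solving of backgrounds and the signs of known changes were tested on simulated data. The changes were set in bright mouse-matched probes, with the same local backgrounds on both simulated arrays. Because the real backgrounds differed and most members lay near them, that test does not cover the members' levels. Further steps used pandas 2.3.3, numpy 2.4.6 and scipy 1.17.1 in Python 3.11.15. By name, 275 probes matched a RefSeq mouse miRNA gene, and 252 were kept at 1 per arm.

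Spot values are given for members detected on 1 or both arrays, members past 2-fold in the authors' deposited table, miR-379, miR-127 and miR-410, and the 3 brightest and 3 dimmest members. miR-136, miR-134 and miR-329 were added after their values were seen. The members and lists were chosen with earlier results of these data known. Alternatives were the background correction, the scaling, the spots, the detection rule and the centring of the ratio. Array number limits precision.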

Additional observations from a re-analysis of the deposited data

How the results depend on the processing

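No paired analysis was possible because each group has 1 array. With BMP7, 0 members were detected; 3 were at 1 SD or with 1 spot, and 2 above the 95th percentile of probes with no mouse gene. With vehicle 2 were detected; 8 were at 1 SD or with 1 spot, 1 above that percentile, and 0 at 3 SD or with all 4 spots. The log2 difference of miR-494 was -2.25; it was -0.61 with no background correction, -3.63 with plain subtraction, -0.18 at its bound, and reversed to 0.59 in the authors' deposited ratio. It ranged from -2.46 to -2.03 without 1 spot. For miR-337 the values were -0.30, -0.98 with plain subtraction, and a reversed 0.24 in that ratio, and -0.37 to -0.18 without 1 spot. The counts past 2-fold in the fitted level cover only these 2 members, both detected on the vehicle array alone, which favours a lower call: 0 passed upward under the 14 alternatives, and the 1 lower became 0 with no background correction and at its bound. The other 27 members were not in these counts. In the deposited ratio 5 members passed 2-fold; 1 did relative to the median of the rows, 16 at 1.5-fold, and 0 in the Cy3 channel alone, an alternative chosen after seeing the data. Rebuilt without 1 spot, 4 to 6 passed. The median log2 fold of all 29 members was 0.61, and 0.063 relative to the median of the rows. Signal close to background limits all members, and the cause of each shift was not tested.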

Other observations

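The probe named for miR-368, an older name of miR-376c, lies outside the rule by name. None of its spots passed on either array, and its fold in the authors' deposited table was 1.77.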
